A study of Mus musculus with 31 samples.

Results

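The genes described here make, break down, carry and respond to retinoic acid. They are 9 of the 47729 genes in the count table, chosen by name for their role in this pathway, and all 9 passed the filter on low counts. Aldh1a1, Aldh1a2 and Aldh1a3 encode the enzymes that oxidise retinal to retinoic acid, Cyp26a1 and Cyp26b1 encode enzymes that break it down, Stra6 encodes a membrane receptor that takes up retinol from its carrier, Crabp1 and Crabp2 encode binding proteins that hold retinoic acid inside the cell, and Rarb encodes a nuclear receptor for it that is itself a known target.

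Retinoic acid is made from vitamin A and acts on neighbouring cells. It enters the nucleus and binds retinoic acid receptors, which sit on DNA as partners of retinoid X receptors and switch genes such as Rarb and Cyp26a1 on. Where the Aldh1a enzymes and the Cyp26 enzymes lie apart in a tissue, a gradient of retinoic acid can form, and in the embryo head the frontonasal mesenchyme and the olfactory placode are known sites of its synthesis.

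RNA-seq was done on pieces of olfactory and trigeminal nerve cut by laser from frozen sections of mouse embryos. The embryos carried Sox10:H2BVenus, a transgene that makes the nuclei of Sox10-expressing cells fluoresce, and had no other mutation or treatment that the sources name. The cells of interest were olfactory ensheathing cells, the glia of the olfactory nerve, and Schwann cells, the glia of the trigeminal nerve. The groups were E11.5 olfactory nerve (4 libraries), E13.5 olfactory nerve (7), E13.5 olfactory nerve layer or ONL, the sheet of axons and glia on the surface of the olfactory bulb (5), and, at E16.5, olfactory nerve (4), outer ONL (4), inner ONL (4) and trigeminal nerve (3). Olfactory nerve here means the bundles in the mucosa under the olfactory epithelium. Inner and outer ONL were cut by distance from the bulb with no visible border between them. The pieces hold cells other than glia, and in such bulk samples fewer cells of a type and less RNA per cell cannot be told apart. Each early group held more libraries than embryos, so that some libraries of a group share an embryo and the p-values of every comparison with an early group are too small. At E16.5 the regions were cut from a shared set of embryos, and no label ties a library to its embryo.

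Of the 16 libraries of E11.5 and E13.5, 10 carry a label that names another group than the one used here. The grouping used puts each library where the group means that the study published place it. A non-negative least squares fit of these means by the libraries, over 1746 to 1756 genes and without the 9 genes described here, gave the same libraries for all 7 groups. The E13.5 ONL group then holds the 4 libraries labelled E11.5 olfactory nerve and the library labelled E13.5 olfactory nerve replicate 1, the E11.5 nerve group holds those labelled E13.5 ONL replicates 2 to 5, and the library labelled E13.5 ONL replicate 1 joins the E13.5 nerve group. The summed level of 6 glial marker genes was 4301 to 6731 CPM in the 5 libraries so grouped as E13.5 ONL and 481 to 1064 CPM in the other 11 early libraries. Early results that were called are given with their value under the labels. No E16.5 library was regrouped. Total counts ran from 3512627 to 36705535 per library, and from 13379107 to 16800784 in the olfactory libraries of E16.5. No replicate pair of the 58 within groups differed by as little as sampling noise.

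The proximal promoters of Rarb and Cyp26a1 are shown first, because they hold the sequence through which retinoic acid receptors are known to act. Promoters (250 bases before to 50 after a start site, RefSeq, GRCm38.p6) were at hand for 7 of the 9 genes, in 11 windows. All were searched on both strands for direct repeats of AGGTCA, with the first base A or G and the third G or T, and with 2 or 5 bases between the copies, each spacing counted on its own. Of 32851 promoters of this length, 0.0974% held a repeat with 5 bases between and 0.268% a repeat with 2, and 43.7% held at least 1 of the single motifs. Of these genes Rarb and Cyp26a1 had a match, each with 5 bases between, and no match was found in the windows of Aldh1a1, Aldh1a2, Crabp1, Cyp26b1 and Stra6. Crabp2 and Aldh1a3 were not in the promoter table. Capitals mark the repeats, and each promoter is written 5′ to 3′ on the strand of its gene. The Rarb window lies on the minus strand at chr14:16575427-16575726 and the Cyp26a1 window on the plus strand at chr19:37697558-37697857. In Cyp26a1 the repeat reads on the opposite strand of the gene, so that its letters appear as their reverse complement.
Rarb: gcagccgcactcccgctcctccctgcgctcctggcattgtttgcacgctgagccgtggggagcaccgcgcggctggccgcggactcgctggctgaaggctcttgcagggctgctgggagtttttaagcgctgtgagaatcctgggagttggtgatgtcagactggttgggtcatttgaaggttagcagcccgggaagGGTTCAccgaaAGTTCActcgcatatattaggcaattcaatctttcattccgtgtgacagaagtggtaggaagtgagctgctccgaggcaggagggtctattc
Cyp26a1: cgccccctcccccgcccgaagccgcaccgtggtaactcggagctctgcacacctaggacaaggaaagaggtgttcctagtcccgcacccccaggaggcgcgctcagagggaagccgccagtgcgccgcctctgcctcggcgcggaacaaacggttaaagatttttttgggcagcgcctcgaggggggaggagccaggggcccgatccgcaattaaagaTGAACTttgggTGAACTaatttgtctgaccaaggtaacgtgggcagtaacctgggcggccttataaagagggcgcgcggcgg

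In Rarb the match ran from base -53 to base -37 of the start site, and in Cyp26a1 from -32 to -16. A match is a description of the letters and does not show that a receptor binds there. Of the 36 other retinoid genes listed below, 26 had a promoter and none held either repeat.

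At E16.5 the outer ONL had lower levels of 7 of the 9 genes than the olfactory nerve and a higher level of none. Aldh1a2, Aldh1a3, Cyp26a1, Cyp26b1, Crabp1, Crabp2 and Rarb fell, between 2.44-fold for Rarb and 14.6-fold for Cyp26a1, and in each of the 7 the highest outer ONL library lay below the lowest nerve library. The share of all genes separated in this way is not given here, so the separation does not set these genes apart. Of all 19332 genes tested, 11.8% were called lower and 10.2% higher. The median log2 fold change was -1.60 over the 9 genes and 0.01 over all genes. Calls here and below are at an adjusted p under 0.05 in the quasi-likelihood test of edgeR, adjusted by Benjamini-Hochberg over the whole table. Scaling by total counts in place of TMM moved the median of all genes to -0.13 and the share of calls that were higher from 46.4% to 34.1%, and kept the 7 calls. The same scaling moved the median of all genes to -0.10 between E13.5 ONL and nerve. With the early libraries grouped by their labels, Aldh1a2 and Aldh1a3 lost their call between outer ONL and olfactory nerve (edgeR adjusted p = 0.149 and 0.227).

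The inner ONL lay lower again. Of the 9 genes, 5 were lower in inner than in outer ONL (Aldh1a2, Aldh1a3, Crabp1, Crabp2 and Rarb) and none was higher, against 5.94% and 8.2% of all genes. From the nerve in the mucosa to the inner ONL these 5 fell at each step. Stra6 and Aldh1a1 were not called between any of the 3 olfactory regions of E16.5 that were compared.

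Against the trigeminal nerve, 6 of the 9 genes were called in outer ONL, beside 25.8% of all genes. The outer ONL was lower for 5 (Aldh1a2, Aldh1a3, Cyp26b1, Crabp1 and Crabp2), beside 12.3% of all genes, and higher for Stra6, as were 2617 genes of all tested. The olfactory nerve was higher than the trigeminal nerve for 4 (Aldh1a1, Cyp26a1, Rarb and Stra6) and lower for Crabp1, beside 13.0% and 10.6% of all genes. Both comparisons use the same 3 trigeminal libraries. With scaling by total counts, the share of calls that were higher moved from 52.5% to 62.7% in the first comparison and from 55.1% to 77.5% in the second, where the median of all genes moved to 0.24. Under it the 5 calls of the second comparison held, and in the first Aldh1a3 and Cyp26b1 lost their call and Aldh1a1 gained one.

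At E13.5 the ONL was lower than the nerve for 7 genes (Aldh1a2, Aldh1a3, Cyp26b1, Crabp1, Crabp2, Rarb and Stra6) and higher for none, beside 16.1% of all genes lower and 15.4% higher. In the olfactory nerve from E11.5 to E13.5, 4 genes rose (Aldh1a2, Aldh1a3, Cyp26b1 and Rarb) and 2 fell (Crabp1 and Stra6), beside 20.2% and 16.4%. From E13.5 to E16.5 in the nerve 2 rose (Cyp26a1 and Stra6) and 2 fell (Crabp1 and Crabp2), beside 15.2% and 13.6%. From E13.5 ONL to E16.5 outer ONL 6 genes were called, beside 41.9% of all genes. Of these 4 rose (Aldh1a2, Aldh1a3, Cyp26a1 and Stra6), beside 21.9%, and 2 fell (Crabp1 and Crabp2), as did 3869 of all 19332 genes tested. With the libraries grouped by their labels instead, 3, 5, 3 and 3 genes were called in these 4 comparisons, not all of them the same calls. In the first, Crabp1 (1.89 on the log2 scale) and Stra6 (0.66) were then called higher in the ONL. In the second, Stra6 was called as a rise (0.86) and Crabp2 was a new call (1.20). In the fourth, Aldh1a1 was a new call (2.57). The share of all genes called under the labels is not given here. The map of fold changes sets out all 8 comparisons.

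**Figure D1:**
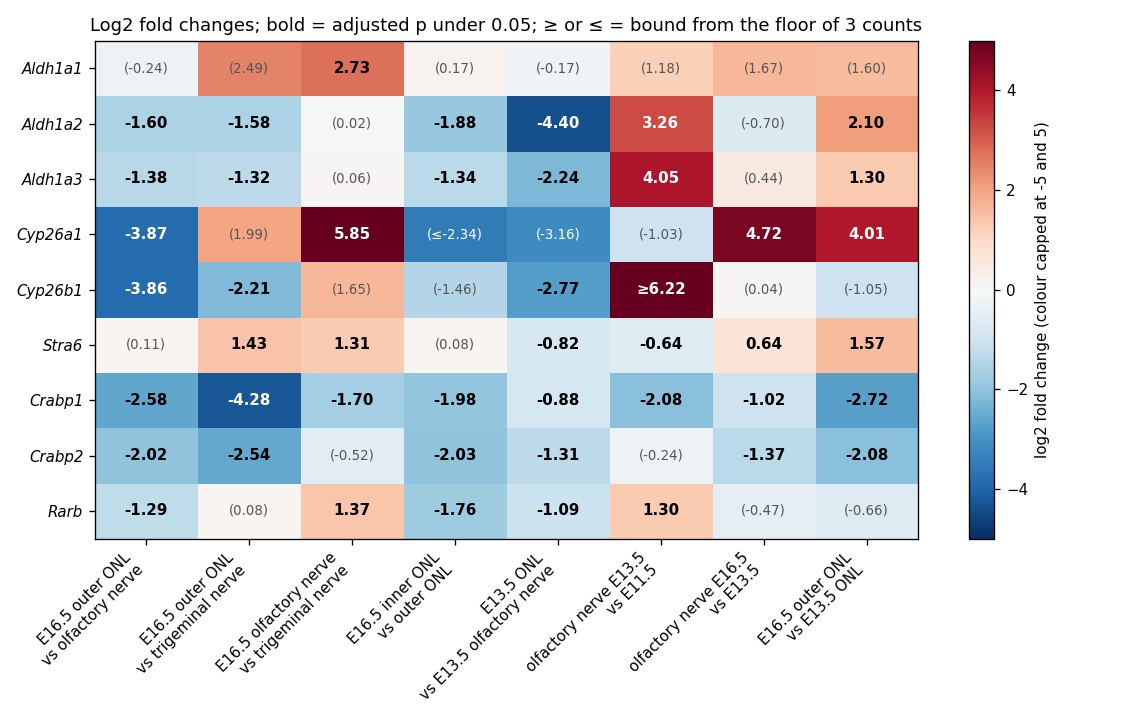
Log2 fold change of each of the 9 genes (rows) in the 8 comparisons (columns), with the first-named group over the second. Colour runs from lower (blue) to higher (red) and is capped at -5 and 5; bold values passed an adjusted p of 0.05 in edgeR's quasi-likelihood test, values in brackets did not, and 2 values against a group at the floor of 3 counts are bounds. The columns of outer ONL against nerve at E16.5 and of ONL against nerve at E13.5 hold 7 bold blue cells each and no bold red cell.

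Among the synthesis enzymes Aldh1a2 was the most abundant. Its level per kilobase of exon was 343 RPKM in E13.5 nerve, where Aldh1a3 was at 31.5 RPKM and Aldh1a1 at 0.20 RPKM. Aldh1a2 lies on chromosome 9 (mm10 build, 71215789 to 71296243, plus strand). At E16.5 its level in the olfactory nerve was 558, 307, 643 and 401 CPM in replicates 1 to 4, and in the outer ONL 82.1, 133, 234 and 182 CPM. The inner ONL had 20.8, 40.5, 30.7 and 78.6 CPM, and the trigeminal nerve 403, 549 and 464 CPM. The nerve libraries of both kinds stood above every outer ONL library, and these above every inner ONL library.

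Aldh1a2 was 3.03-fold lower in outer ONL than in olfactory nerve (log2 fold change -1.60 ± 0.43 SE, n = 4 and 4, edgeR adjusted p = 0.0074) and 3.69-fold lower in inner than in outer ONL (-1.88 ± 0.44, adjusted p = 0.0030). Against the trigeminal nerve the outer ONL was lower by 1.58 on the log2 scale (-1.58 ± 0.46, n = 4 and 3, edgeR adjusted p = 0.0098), while the olfactory nerve differed from it by 0.02 ± 0.46 (adjusted p = 0.987). Grouping the early libraries by their labels leaves these fold changes in place and raises the adjusted p to 0.149, 0.128 and 0.159. When early libraries were left out of the fit altogether, an alternative added after the data had been seen, 7 genes were called between outer ONL and nerve and 6 between inner and outer ONL. The share of all genes called in that fit is not given here.

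At E13.5 Aldh1a2 parted more sharply. The 7 nerve libraries ran from 625 to 944 CPM with a median of 769, and the 5 ONL libraries had 10.9, 31.5, 36.2, 46.1 and 59.4 CPM, far below. The ONL was lower by 4.40 on the log2 scale (-4.40 ± 0.43, n = 5 and 7, edgeR adjusted p = 1.90e-09). Under the labels the difference was -1.63 (adjusted p = 0.0705). The E11.5 nerve had 20.8, 72.0, 81.1 and 149 CPM, and the rise to E13.5 was 9.61-fold (3.26 ± 0.44, adjusted p = 1.16e-06; under the labels 4.29, adjusted p = 6.24e-04). Some early libraries share an embryo, and these p-values are too small.

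From E13.5 to E16.5 Aldh1a2 rose in the ONL, from a mean of 36.8 ± 18.0 CPM (SD, n = 5) to 158 ± 65.0 CPM in outer ONL (n = 4; 4.29-fold, SE 0.41 on the log2 scale, edgeR adjusted p = 1.37e-04), whereas under the labels it did not (-0.47, adjusted p = 0.626). In the nerve the means were 776 ± 131 and 477 ± 152 CPM (log2 fold change -0.70 ± 0.39, adjusted p = 0.178; 0.0091 when these 2 groups alone were fitted). The ONL to nerve difference was thus smaller at E16.5 than at E13.5, by 2.80 ± 0.57 on the log2 scale (test of the difference itself, edgeR adjusted p = 0.0010; 0.03 under the labels, adjusted p = 0.995). Of the 9 genes, this test called 1 gene toward a higher and 1, Crabp1, toward a lower ONL to nerve ratio at E16.5, beside 5.59% and 6.75% of all genes.

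Aldh1a3 (chromosome 7, 66390890 to 66427517, minus strand) followed a similar order at E16.5. The olfactory nerve had 230, 170, 230 and 162 CPM, the outer ONL 67.7, 58.1, 111 and 66.5 CPM, the inner ONL 26.5, 32.7, 22.5 and 38.5 CPM, and the trigeminal nerve 190, 226 and 153 CPM. The 3 olfactory regions did not overlap, and the 2 nerves did. The outer ONL was 2.60-fold lower than the olfactory nerve (-1.38 ± 0.45, edgeR adjusted p = 0.025), 2.50-fold lower than the trigeminal nerve (-1.32 ± 0.47, adjusted p = 0.037) and 2.52-fold higher than the inner ONL (adjusted p = 0.045). These calls are near the threshold: under the labels the adjusted p was 0.227, 0.254 and 0.335, and leaving out any of 4 libraries (olfactory nerve replicate 1 or outer ONL replicates 1, 2 or 4) took the first to between 0.057 and 0.069. Without outer ONL replicate 1, 2 or 4 or trigeminal nerve replicate 1 or 2 the second was at 0.086 to 0.124, and without any of 6 libraries (inner ONL replicates 1 to 3 or outer ONL replicate 1, 3 or 4) the last was at 0.058 to 0.158. Total count scaling ended the second and the last call (0.062 and 0.055).

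The earliest nerve held little Aldh1a3. Its 4 libraries had 2.78, 2.86, 5.17 and 24.1 CPM, the highest of them the library labelled E13.5 ONL replicate 3, and the 7 libraries of E13.5 nerve ran from 89.3 to 247 CPM with a median of 133. The rise was 4.05 on the log2 scale (4.05 ± 0.48, n = 7 and 4, edgeR adjusted p = 1.37e-07; under the labels 2.20, adjusted p = 0.035). In E13.5 ONL the values were 11.6, 22.6, 38.9, 39.4 and 42.9 CPM, all below the nerve (-2.24 ± 0.40, adjusted p = 4.96e-05; under the labels -1.99, adjusted p = 0.034). The outer ONL of E16.5 was above E13.5 ONL (1.30 ± 0.42, adjusted p = 0.014), which ended under the labels (1.19, adjusted p = 0.185) and without outer ONL replicate 3 (0.065).

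Aldh1a1 (chromosome 19, 20492715 to 20643465, plus strand) was near the lower end of what the depth can show, with at most 4.58 CPM in any library. Its mean was 3.20 ± 0.96 CPM in the E16.5 olfactory nerve, 2.70 ± 1.21 in outer ONL, 3.04 ± 1.12 in inner ONL (SD, n = 4 each) and 0.48 ± 0.50 in the trigeminal nerve (n = 3). The olfactory nerve was above the trigeminal nerve (2.73 ± 0.97, edgeR adjusted p = 0.039). This call does not survive the labels (adjusted p = 0.055), the replicate number as a block (0.061) or leaving out any of 5 of the 7 libraries (olfactory nerve replicates 1 to 3 and trigeminal nerve replicates 1 and 2, with an adjusted p of 0.0504 to 0.134). Between outer ONL and trigeminal nerve the log2 fold change was 2.49 ± 0.96 (adjusted p = 0.055). Over the stages neither the nerve from E13.5 to E16.5 (1.67 ± 0.71, adjusted p = 0.077) nor outer ONL against E13.5 ONL was called (1.60 ± 0.79, adjusted p = 0.107), the latter with 2.57 and an adjusted p of 0.016 under the labels.

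**Figure D2:**
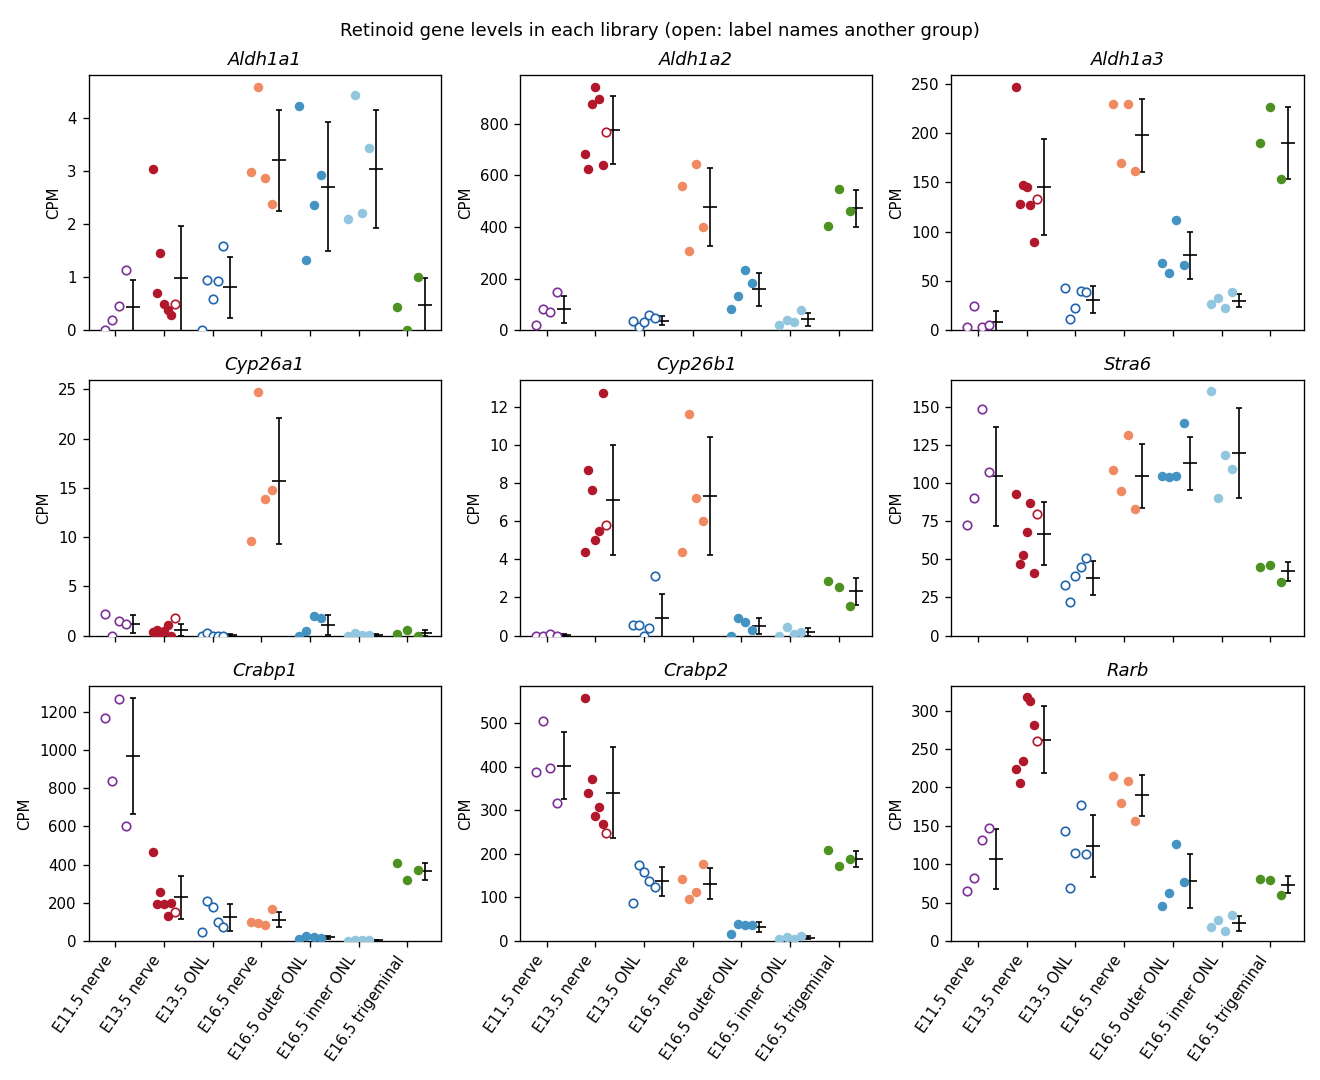
Level of each of the 9 genes in CPM (vertical axes, linear) in each of the 31 libraries, by group; points are libraries, bars are the mean and SD, and open points are the 10 libraries whose label names another group. For Aldh1a2 all 7 libraries of E13.5 nerve lie between 625 and 944 CPM and all 5 of E13.5 ONL at or below 59.4 CPM; Cyp26a1 reaches 9.59 CPM or more only in the 4 E16.5 olfactory nerve libraries.

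Of the enzymes that break retinoic acid down, Cyp26a1 (chromosome 19, 37697798 to 37701536, plus strand) was abundant in a single group. The 4 olfactory nerve libraries of E16.5 had 9.59, 24.7, 13.8 and 14.8 CPM (155, 399, 213 and 267 counts). No other library of the 31 passed 2.20 CPM. The outer ONL had 0, 0.44, 1.99 and 1.83 CPM, the trigeminal nerve 0.18, 0.61 and 0 CPM, and the inner ONL between 0 and 3 counts per library, at the floor of 3 counts used here.

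The outer ONL lay 14.6-fold below the olfactory nerve (-3.87 ± 1.05, n = 4 and 4, edgeR adjusted p = 0.0075; under the labels 0.020), and the olfactory nerve 57.8-fold above the trigeminal nerve (5.85 ± 1.33, n = 4 and 3, adjusted p = 0.0013). It was also 26.4-fold above E13.5 nerve (4.72 ± 0.89, adjusted p = 1.97e-04; under the labels 5.57, adjusted p = 2.30e-04), whose libraries ran from 0 to 1.74 CPM. The mean of outer ONL was 5.05-fold the level that 3 counts give in inner ONL. The 2 groups overlapped, with 0 counts in outer ONL replicate 1, and their difference was not called (edgeR adjusted p = 0.080). Outer ONL against trigeminal nerve was not called either (1.99 ± 1.18, adjusted p = 0.235). In E13.5 ONL 4 of 5 libraries had no count, and the difference from E13.5 nerve was not called (-3.16 ± 1.32, adjusted p = 0.068; under the labels 1.99, adjusted p = 0.141). The E11.5 nerve had 0, 1.16, 1.49 and 2.20 CPM (E13.5 against E11.5 nerve -1.03 ± 0.89, adjusted p = 0.386; under the labels 1.77, adjusted p = 0.457). From E13.5 ONL to outer ONL at E16.5 the rise was called (4.01 ± 1.34, adjusted p = 0.017), on 0 to 30 counts per library, but not without outer ONL replicate 3 (0.0505) or the library labelled E13.5 olfactory nerve replicate 1 (0.054), nor under the labels (-0.29, adjusted p = 0.849).

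Epithelial marker genes moved with Cyp26a1 between these groups. The sum of Epcam, Krt8, Krt18, Krt5 and Cdh1 was 138 to 468 CPM in the E16.5 olfactory nerve and 5.25 to 9.42 CPM in outer ONL, and all 5 were called lower there, with Krt5, a keratin of basal epithelial cells, at the floor. Within the olfactory nerve the libraries went in another order: replicate 2, with the most Cyp26a1 (24.7 CPM), had the least Krt5 (1.92 CPM) and the lowest epithelial sum (138 CPM), and replicate 1, with the least Cyp26a1 (9.59 CPM), had the highest sum (468 CPM). The E13.5 nerve had an epithelial sum of 230 to 450 CPM with Cyp26a1 at or below 1.74 CPM.

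Cyp26b1 (chromosome 6, 84571414 to 84593908, minus strand) was low in all groups and present in both older olfactory nerves. The E16.5 nerve had 4.39, 11.6, 7.22 and 5.98 CPM and the outer ONL 0, 0.94, 0.71 and 0.31 CPM. The 7 libraries of E13.5 nerve ran from 4.38 to 12.7 CPM with a median of 5.80, and E13.5 ONL had 0, 0.42, 0.55, 0.58 and 3.12 CPM. In both stages the ONL libraries lay below all those of the nerve. The E16.5 difference was 14.5-fold (-3.86 ± 0.82, edgeR adjusted p = 7.53e-04; under the labels 0.039) and the E13.5 difference 6.83-fold (-2.77 ± 0.67, adjusted p = 0.0016; under the labels 0.075).

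In E11.5 nerve Cyp26b1 was at the floor, with 2 counts in 1 library and 0 in the other 3. Against the floor of 3 counts in each library the E13.5 nerve was at least 74.3-fold higher (edgeR adjusted p = 5.97e-07). This bound is for the grouping used. Under the labels the rise was smaller, at 4.21 on the log2 scale (edgeR adjusted p = 0.028). The trigeminal nerve had 2.88, 2.53 and 1.54 CPM, above every outer ONL library (outer ONL against trigeminal nerve -2.21 ± 0.83, adjusted p = 0.047). That call was lost under the labels (0.242), with the replicate block (0.175), with total count scaling (0.067) and without any of 6 of its 7 libraries (all but outer ONL replicate 2, with an adjusted p of 0.052 to 0.125). The olfactory nerve stood above all 3 trigeminal libraries, yet the difference was not called (1.65 ± 0.79, adjusted p = 0.136), though it was with a block for replicate number (adjusted p = 0.030) or when only these 2 groups were fitted (0.0064).

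Stra6 (chromosome 9, 58063788 to 58153996, plus strand), the retinol uptake receptor, had its own pattern. The E16.5 olfactory nerve had 108, 94.9, 132 and 82.9 CPM, the outer ONL 105, 104, 105 and 139 CPM, the inner ONL 160, 90.4, 118 and 109 CPM, and the trigeminal nerve 44.7, 46.4 and 35.2 CPM. The 3 olfactory regions overlapped and all lay above the trigeminal nerve. The olfactory nerve was 2.48-fold (1.31 ± 0.28, edgeR adjusted p = 7.47e-04) and the outer ONL 2.69-fold (1.43 ± 0.28, adjusted p = 2.60e-04) above the trigeminal nerve. Between outer ONL and nerve the log2 difference was 0.11 ± 0.25, and between inner and outer ONL 0.08 ± 0.25.

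In the early groups Stra6 had 72.3, 90.4, 107 and 148 CPM in E11.5 nerve, 41.0 to 92.6 CPM in E13.5 nerve (median 68.1) and 22.1, 33.2, 38.8, 44.6 and 50.9 CPM in E13.5 ONL, and neighbouring groups overlapped. The ONL was lower than the nerve at E13.5 (-0.82 ± 0.22, edgeR adjusted p = 0.0036), and the reverse under the labels (0.66, adjusted p = 0.027). The nerve fell from E11.5 to E13.5 (-0.64 ± 0.22, adjusted p = 0.022; under the labels 0.86, adjusted p = 0.012) and rose to E16.5 (0.64 ± 0.22, adjusted p = 0.028; under the labels 0.73, adjusted p = 0.015). Leaving out either the library labelled E13.5 ONL replicate 4 or that labelled E13.5 olfactory nerve replicate 4 ended the fall (adjusted p = 0.161 and 0.064), and leaving out the library labelled E13.5 olfactory nerve replicate 3 or 7 or E16.5 nerve replicate 1 or 3 ended the rise (0.058 to 0.085). The rise from E13.5 ONL to outer ONL was 2.97-fold (1.57 ± 0.24, adjusted p = 4.60e-06), and 0.18 on the log2 scale under the labels (adjusted p = 0.575).

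The binding proteins spanned the widest range of the abundant genes. Crabp1 (chromosome 9, 54764748 to 54773110, plus strand) had a mean of 968 ± 303 CPM in E11.5 nerve (SD, n = 4) and 4.74 ± 1.28 CPM in E16.5 inner ONL (n = 4), a ratio of 204. Per kilobase of exon it was the highest of the 9 genes in E11.5 nerve, at 1207 RPKM, where Crabp2 was at 304 RPKM. The E16.5 olfactory nerve had 99.4, 95.5, 85.6 and 168 CPM, the outer ONL 11.4, 28.8, 21.1 and 13.6 CPM, the inner ONL 2.82, 5.34, 5.50 and 5.30 CPM, and the trigeminal nerve 406, 317 and 372 CPM. No library of a group reached into the next.

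Crabp1 was 5.98-fold lower in outer ONL than in olfactory nerve (-2.58 ± 0.40, edgeR adjusted p = 1.24e-05), 19.5-fold lower than in the trigeminal nerve (-4.28 ± 0.44, adjusted p = 7.77e-09) and 3.96-fold higher than in inner ONL (adjusted p = 9.68e-04). It was the single gene of the 9 called lower in the olfactory than in the trigeminal nerve (-1.70 ± 0.40, adjusted p = 0.0019). All 4 calls held under the labels, with an adjusted p of at most 0.021.

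Over the stages Crabp1 fell. The E11.5 nerve had 603, 839, 1165 and 1264 CPM, above the 130 to 466 CPM of E13.5 nerve (median 194), with a fall of 4.24-fold (-2.08 ± 0.32, edgeR adjusted p = 7.92e-06), and under the labels the difference turned to 0.68 (adjusted p = 0.318). The nerve fell again to E16.5 (-1.02 ± 0.34, adjusted p = 0.024), a call that leaving out the library labelled E13.5 olfactory nerve replicate 2 (0.075) or E16.5 nerve replicate 1, 2 or 3 (0.070 to 0.115) or the labels (0.115) ended. The fall from E13.5 ONL to outer ONL was 6.60-fold (-2.72 ± 0.39, adjusted p = 1.69e-06; under the labels -5.42, adjusted p = 4.13e-08).

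At E13.5 the ONL libraries had 49.8, 75.8, 101, 179 and 211 CPM of Crabp1 and overlapped the nerve. The ONL was lower (-0.88 ± 0.32, edgeR adjusted p = 0.032), but not when the library labelled E11.5 olfactory nerve replicate 1 or 4 or E13.5 olfactory nerve replicate 1 or 2 was left out (0.074 to 0.121) or when only these 2 groups were fitted (0.071), and higher by 1.89 on the log2 scale under the labels (adjusted p = 0.0026). The ONL to nerve ratio was lower at E16.5 than at E13.5 by 1.70 ± 0.49 on the log2 scale (adjusted p = 0.018; -4.47 under the labels, adjusted p = 4.86e-05). Leaving out the library labelled E11.5 olfactory nerve replicate 2, E16.5 nerve replicate 4 or outer ONL replicate 1 gave an adjusted p of 0.053 to 0.061.

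Crabp2 (chromosome 3, 87948666 to 87953376, plus strand), which hands retinoic acid to the receptors, had 141, 97.0, 112 and 178 CPM in the E16.5 olfactory nerve, 16.4, 39.6, 35.9 and 37.9 CPM in outer ONL, 3.70, 9.63, 5.73 and 12.7 CPM in inner ONL and 208, 171 and 188 CPM in the trigeminal nerve. The 3 olfactory regions did not overlap. It was 4.06-fold lower in outer ONL than in the nerve (-2.02 ± 0.30, edgeR adjusted p = 6.57e-06), 5.82-fold lower than in the trigeminal nerve (-2.54 ± 0.32, adjusted p = 2.85e-07) and 4.07-fold higher than in inner ONL (adjusted p = 2.31e-05), and each call held under the labels.

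At the earlier stages Crabp2 had 317, 388, 398 and 504 CPM in E11.5 nerve, 249 to 558 CPM in E13.5 nerve (median 307) and 88.0, 124, 138, 158 and 175 CPM in E13.5 ONL. The E11.5 and E13.5 nerves overlapped (-0.24 ± 0.25, edgeR adjusted p = 0.485; under the labels 1.20, adjusted p = 0.0097). The E13.5 ONL was 2.48-fold lower than the nerve (-1.31 ± 0.25, adjusted p = 9.85e-05; under the labels 0.20, adjusted p = 0.651). From E13.5 to E16.5 Crabp2 fell in the nerve (-1.37 ± 0.27, adjusted p = 2.99e-04; under the labels -1.29, adjusted p = 0.0039) and in the ONL (-2.08 ± 0.29, adjusted p = 1.19e-06; under the labels -3.52, adjusted p = 3.75e-08).

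**Figure D3:**
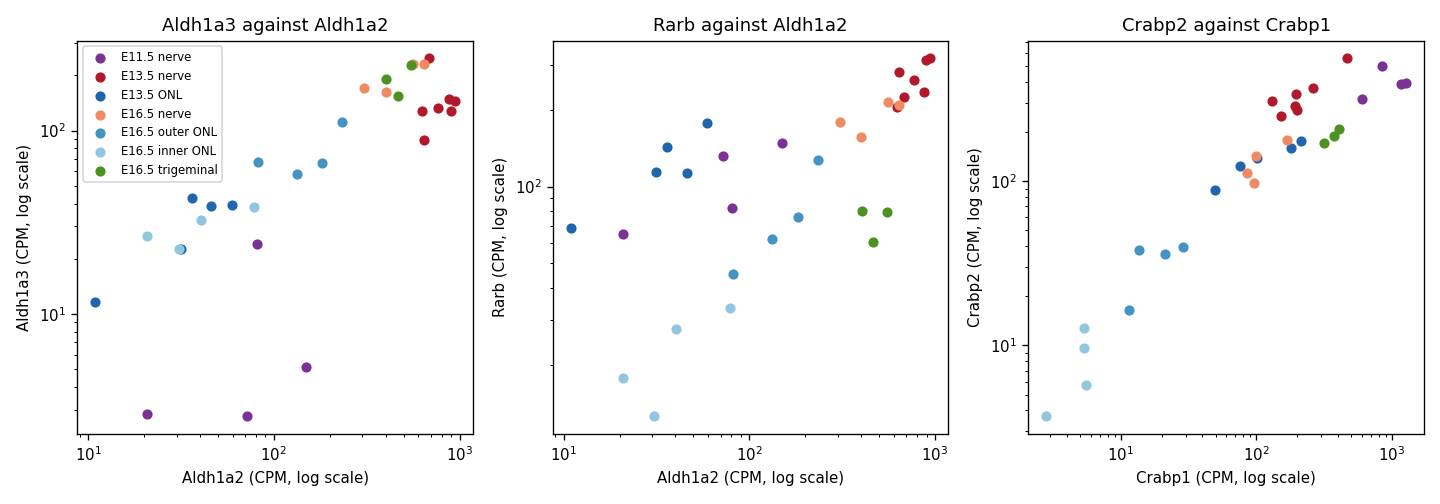
Level of Aldh1a3 against Aldh1a2, of Rarb against Aldh1a2 and of Crabp2 against Crabp1, in CPM on log axes, with a point for each of the 31 libraries coloured by group. On the left plot 3 of the 4 E11.5 nerve libraries lie lowest with Aldh1a3 at 2.78 to 5.17 CPM, on the middle plot the trigeminal nerve has Rarb at 60.5 to 80.5 CPM beside Aldh1a2 at 403 to 549 CPM, and the inner ONL lies lowest on the right plot.

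Rarb (chromosome 14, 16430839 to 16819156, minus strand), the receptor gene whose promoter is shown above, had 214, 180, 209 and 156 CPM in the E16.5 olfactory nerve, 45.4, 62.2, 127 and 76.3 CPM in outer ONL, 17.9, 27.6, 12.6 and 33.4 CPM in inner ONL and 80.5, 79.4 and 60.5 CPM in the trigeminal nerve. The olfactory nerve stood above all other E16.5 libraries, and the trigeminal nerve lay within the range of outer ONL. The outer ONL was 2.44-fold lower than the nerve (-1.29 ± 0.29, edgeR adjusted p = 0.0016; under the labels 0.017) and the inner ONL 3.39-fold lower than the outer (-1.76 ± 0.30, adjusted p = 9.66e-05; under the labels 0.0031). The olfactory nerve was 2.58-fold above the trigeminal nerve (1.37 ± 0.33, adjusted p = 0.0022; under the labels 0.019), while the outer ONL differed from it by 0.08 ± 0.31. The trigeminal libraries overlapped the olfactory nerve in Aldh1a2 and Aldh1a3 and had Rarb and Cyp26a1 below every olfactory nerve library.

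In the early groups Rarb had 65.0, 82.1, 132 and 148 CPM in E11.5 nerve, 206 to 317 CPM in E13.5 nerve (median 260) and 68.8, 113, 114, 143 and 177 CPM in E13.5 ONL, the E13.5 nerve being above all others. It rose 2.46-fold in the nerve from E11.5 to E13.5 (1.30 ± 0.27, edgeR adjusted p = 3.65e-04; under the labels 0.94, adjusted p = 0.052) and was 2.13-fold lower in the ONL than in the nerve at E13.5 (-1.09 ± 0.25, adjusted p = 8.85e-04; under the labels -0.81, adjusted p = 0.066). Of the 5265 exon bases of Rarb, 1793 are also exon of Top2b, a topoisomerase gene on the opposite strand, and the kit and counting are not stated to keep strand. Top2b was at 94.3, 86.1, 105 and 99.5 CPM in the 4 groups of E16.5 (olfactory nerve, outer ONL, inner ONL and trigeminal nerve), and none of its 4 differences there was called (edgeR adjusted p = 0.345 to 0.819). At E13.5 Top2b was higher in the ONL (0.49, adjusted p = 0.0095), the opposite direction to Rarb.

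Other genes of the pathway moved in both directions. Of 36 further retinoid genes (retinol supply, conversion between retinol and retinal, other delivery and breakdown, other receptors and known targets), 29 passed the filter on low counts and 7 did not. In outer ONL, 3 of the 29 were higher (10.3%) and 7 lower (24.1%) than in the E16.5 olfactory nerve, beside 10.2% and 11.8% of all genes. Against the trigeminal nerve 13 were called in outer ONL (44.8%, beside 25.8%), of them 11 lower (37.9%, beside 12.3%), and in the olfactory nerve 2 were higher (6.90%, beside 13.0%) and 6 lower (20.7%, beside 10.6%). Inner ONL had 2 higher (6.90%, beside 8.2%) and 7 lower (24.1%, beside 5.94%) than outer ONL. In each comparison the share lower was above that of all genes, with no test of the difference. Their median log2 fold changes were -0.12, -0.37, -0.40 and -0.48, against 0.01, 0.01, -0.01 and -0.05 over all genes.

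Among the enzymes of the first step, Adh1, an alcohol dehydrogenase that oxidises retinol, was at 14.0 ± 9.25 CPM in the E16.5 olfactory nerve and 1.40 ± 0.27 CPM in outer ONL (SD, n = 4 each; log2 fold change -3.32 ± 0.62, edgeR adjusted p = 1.86e-04), and at 12.1 ± 1.78 CPM in the trigeminal nerve (n = 3; outer ONL 8.66-fold lower, adjusted p = 3.96e-04). Rdh10, the main embryonic retinol dehydrogenase, went the other way, with 27.4 ± 7.30 CPM in outer ONL and 14.9 ± 2.90 CPM in the nerve (0.88 ± 0.27, adjusted p = 0.016; under the labels 0.060). Dhrs3, which turns retinal back to retinol, was 2.16-fold lower in inner than in outer ONL (adjusted p = 0.0022) and 2.04-fold lower in the olfactory than in the trigeminal nerve (adjusted p = 0.0043). Ttr, the carrier of the retinol-binding protein complex in blood, was higher in outer ONL than in the nerve (10.7 ± 1.78 against 2.33 ± 1.56 CPM, adjusted p = 0.019; under the labels 0.073) and lower in the nerve than in the trigeminal nerve (4.71-fold, adjusted p = 0.022; under the labels 0.076), and Rbp4, the retinol-binding protein it carries, was 11.1-fold lower in outer ONL than in the trigeminal nerve (adjusted p = 0.0038).

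Among the other receptors, Rarg fell in step with the genes above, from 33.1 ± 6.24 CPM in the olfactory nerve to 20.2 ± 2.44 in outer ONL (edgeR adjusted p = 0.011) and 8.53 ± 0.81 in inner ONL (adjusted p = 8.84e-05), and was at 55.4 ± 4.15 CPM in the trigeminal nerve, above the olfactory nerve (1.67-fold, adjusted p = 0.012) and the outer ONL (2.75-fold, adjusted p = 5.62e-06). Rxra was 1.71-fold lower in inner than in outer ONL (adjusted p = 0.0010). Of the 9 known targets listed, 6 were tested. Tgm2, a transglutaminase induced by retinoic acid, fell from 98.1 ± 24.1 CPM in the nerve to 34.8 ± 11.9 in outer ONL (-1.49 ± 0.28, adjusted p = 2.17e-04) and 15.4 ± 3.43 in inner ONL (adjusted p = 0.0043; under the labels 0.15). Meis2 and Meis1, homeobox genes, were higher in inner than in outer ONL (2.36 ± 0.60, adjusted p = 0.0065, and 1.91 ± 0.45, adjusted p = 0.0029). Rarres2, Meis2 and Fabp5, a fatty acid-binding protein that also delivers retinoic acid, were lower in both the olfactory nerve and the outer ONL than in the trigeminal nerve, by 2.16-fold to 8.21-fold.

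In E13.5 ONL, 4 of the 29 genes were higher (13.8%) and 10 lower (34.5%) than in E13.5 nerve, beside 15.4% and 16.1% of all genes. From E11.5 to E13.5 in the nerve 11 rose (37.9%, beside 20.2%) and 4 fell (13.8%, beside 16.4%). From E13.5 to E16.5 in the nerve 9 rose (beside 15.2% of all genes) and 6 fell (20.7%, beside 13.6%), and from E13.5 ONL to outer ONL 15 were called (51.7%, beside 41.9%), 11 of them up and 4 down.

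The genes with the largest folds at E13.5 went both ways. Meis2 was 3.40-fold higher in E13.5 ONL than in nerve (edgeR adjusted p = 0.0048), and Tgm2 was 3.30-fold lower (adjusted p = 2.30e-06), Rarg 2.50-fold lower (7.67e-07), Dhrs3 2.40-fold lower (2.57e-05), Rara 2.21-fold lower (1.47e-06) and Nr2f1, an orphan nuclear receptor gene, 2.06-fold lower (7.56e-04). Of these calls that of Tgm2 held under the labels (adjusted p = 0.040). Under the labels the direction turned for Meis2 (-0.33 on the log2 scale), Rarg (0.23), Rara (0.47) and Nr2f1 (0.41), and Dhrs3 was no longer called (0.129). From E11.5 to E13.5 in the nerve, Tgm2 rose 5.62-fold (adjusted p = 4.88e-08), Dhrs3 2.44-fold (6.08e-05) and Rxra 1.60-fold (5.19e-04), and Fabp5 fell 1.94-fold (7.35e-05), all called under the labels too. Rdh10 rose 1.66-fold (0.017) and turned under the labels (-0.68).

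Later, Adh1 rose from 0.195 to 14.0 CPM in the nerve from E13.5 to E16.5 (edgeR adjusted p = 1.39e-08), Rxrg rose 4.77-fold (1.80e-07), Rarres2 3.02-fold (2.24e-04) and Tgm2 2.42-fold (1.91e-04), while Nr2f1 fell 2.94-fold (4.12e-05) and Rdh10 1.81-fold (0.0083). All 6 calls held under the labels. From E13.5 ONL to outer ONL, Ttr rose 9.46-fold (edgeR adjusted p = 2.66e-04), Rxrg 6.93-fold (1.15e-08) and Tgm2 2.84-fold (4.57e-05), and Fabp5 fell 4.56-fold (1.17e-09), calls that held under the labels. Rara rose 2.91-fold (5.53e-08) and Meis2 fell 3.48-fold (0.013), and the labels ended both calls (0.890 and 0.753).

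Marker genes of other cell types differed between the same groups. The sum of 8 fibroblast and mesenchyme markers was 9552 to 16190 CPM in the E16.5 olfactory nerve, 5732 to 11010 CPM in outer ONL, 921 to 2168 CPM in inner ONL and 23488 to 27627 CPM in the trigeminal nerve. Of the 8, 5 were called lower in outer ONL than in the olfactory nerve, 8 lower in inner than in outer ONL and 5 lower in outer ONL than in the trigeminal nerve. In the outer ONL the libraries with the most and the least Aldh1a2 (replicate 3, 234 CPM, and replicate 1, 82.1 CPM) also had the highest and lowest mesenchyme sum (11010 and 5732 CPM). In the other E16.5 groups the highest libraries matched and the lowest did not. In the olfactory nerve Aldh1a2 was lowest in replicate 2 (307 CPM) and the sum in replicate 4 (9552 CPM). Both ends matched in the E13.5 groups and neither did in E11.5 nerve. From E13.5 to E16.5 nerve the mean sum went from 4560 to 13491 CPM and mean Aldh1a2 from 776 to 477 CPM. Rarb was higher in the olfactory than in the trigeminal nerve, where the mesenchyme sum was above that of every olfactory nerve library. Of the 8 mesenchyme markers, 3 were called lower in the olfactory than in the trigeminal nerve and 0 higher. The collagen genes and Prrx1 had lower means in the olfactory nerve (Col3a1 6194 and 13957 CPM). Pdgfra (290 and 196 CPM), Lum (724 and 329), Dcn (2089 and 1350) and Twist1 (6.43 and 4.82) had higher means there. The sum of 6 meningeal markers was 944 to 1387 CPM in the olfactory nerve, 452 to 867 in outer ONL, 110 to 293 in inner ONL and 1888 to 2238 in the trigeminal nerve. Most of it was Cxcl12 (means of 833 CPM in the olfactory nerve and 483 in outer ONL). Of the 6, 2 were called lower in outer ONL than in the olfactory nerve and 1 higher. Slc22a6 went against the sum, with means of 26.8 CPM in outer ONL, 0.84 in the olfactory nerve and 0.24 in the trigeminal nerve.

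Markers also differed between the early groups. At E13.5 the mesenchyme sum was 3546 to 6416 CPM in the nerve and 1871 to 3910 CPM in the ONL. Of the 8 markers 5 were lower in the ONL, among them Prrx1 (means of 159 CPM in the nerve and 23.2 CPM in the ONL). The 2 that were higher in the ONL were Lum (70.0 and 347 CPM) and Dcn (83.5 and 254 CPM). The epithelial sum was 230 to 450 CPM in the nerve and 3.96 to 12.5 CPM in the ONL, with 4 of 5 lower, and all 7 markers of olfactory sensory neurons were lower in the ONL. From E11.5 to E13.5 in the nerve, 7 of 8 mesenchyme, 3 of 5 epithelial, 6 of 7 sensory neuron, 5 of 5 endothelial and 4 of 5 mural cell markers rose. From E13.5 to E16.5 in the nerve 6 mesenchyme markers rose and 2 fell and 5 of 6 glial markers rose, and from E13.5 ONL to outer ONL 5 mesenchyme markers rose and 1 fell and 5 glial markers rose. The 6 glial markers, with none at the floor in any group, summed to 18668 to 32874 CPM in outer ONL, 20773 to 26084 in inner ONL, 1661 to 3906 in the E16.5 olfactory nerve and 1372 to 1660 in the trigeminal nerve. The sum of 7 markers of olfactory sensory neurons was 163 to 315 CPM in the E16.5 olfactory nerve and 30.6 to 47.4 CPM in outer ONL, and 6 of the 7 were called lower there. Of 5 olfactory bulb neuron markers, 5 were higher in inner than in outer ONL, 3 were higher and 1 lower in outer ONL than in the nerve, and 4 were higher in E13.5 ONL than in nerve. Markers of endothelium (5 genes), mural cells (5) and bone and cartilage (5) were lower in outer ONL than in the olfactory nerve for 1, 3 and 3 genes and higher for none. The part of any of these cell types in the retinoid gene differences was not tested.

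**Figure D4:**
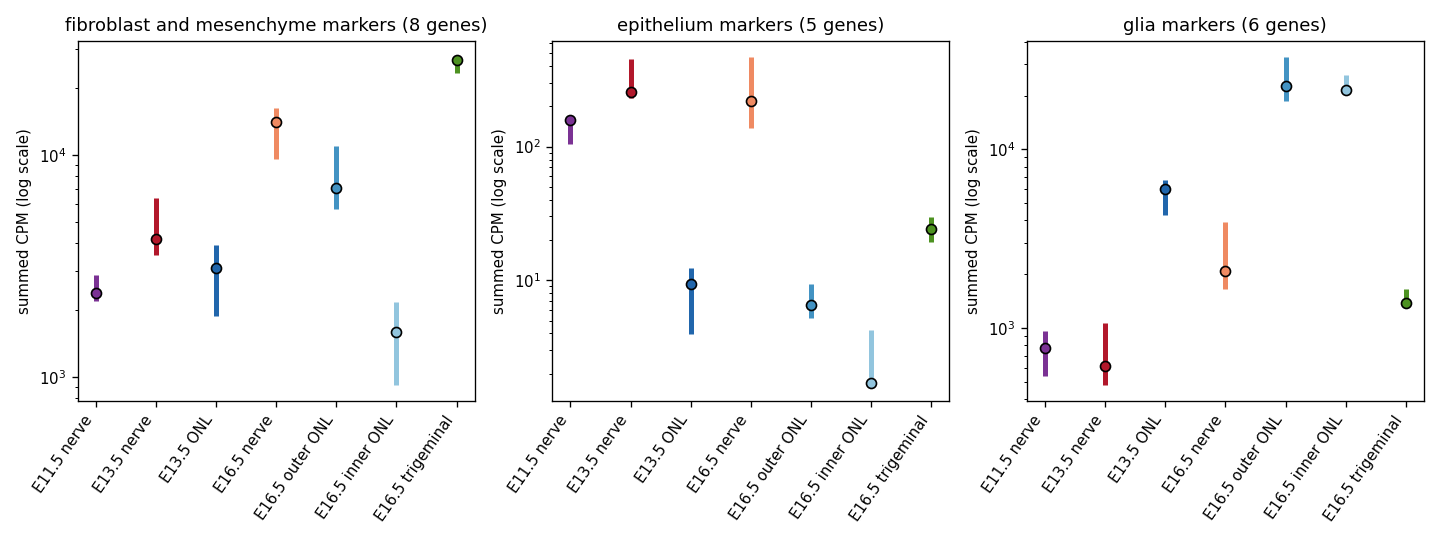
Summed CPM (log axes) of 8 fibroblast and mesenchyme markers, 5 epithelial markers and 6 glial markers in each of the 7 groups; lines run from the lowest to the highest library and points are medians. Mesenchyme is lowest in E16.5 inner ONL (921 to 2168 CPM) and highest in the trigeminal nerve (23488 to 27627 CPM), epithelium is at 105 CPM or more in the 3 olfactory nerve groups alone, and glia is highest in outer and inner ONL of E16.5.

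For the 3 genes with the widest range of group levels on the log2(CPM + 0.5) scale, among those with a group at 10 CPM or more, the genes whose levels went most closely with them over the 7 groups were sought among 12286 genes, by the root mean square difference of centred log2(CPM + 0.5) group means. These are descriptions over 7 groups that share their libraries. For Crabp1 they were Hmga2 (0.75), Alkal2 (0.96) and Shox2 (1.10). For Crabp2 they were Ptx3 (0.59), Hmga2 (0.62) and Moxd1 (0.64). Hmga2, a chromatin protein of embryonic cells, stood at 115 CPM in E11.5 nerve and 1.05 CPM in E16.5 inner ONL. For Cyp26a1 they were Hapln1 (0.49), Krt5 (0.56) and Wfdc18 (0.58), each highest in the E16.5 olfactory nerve. Hapln1, a link protein of the extracellular matrix, had 29.8, 184, 61.5 and 103 CPM in the 4 nerve libraries of E16.5, and like Cyp26a1 was highest in replicate 2 and lowest in replicate 1, whereas Krt5 had 15.3, 1.92, 12.4 and 19.4 CPM.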

How the data were processed

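RNA was extracted from laser-microdissected nerve regions, amplified with the SMART-seq V4 kit and made into Nextera XT paired-end libraries. The authors aligned reads to mm10 with TopHat2 2.1.0 and counted them per gene with HTSeq. The deposited counts, raw and not normalised, were used as they are. The table lists 47729 genes and 1 row without a name, which was left out; 47224 genes had a symbol. Counts were scaled with TMM in edgeR 4.0.16 (R 4.3.3), and low genes were removed with filterByExpr. The quasi-likelihood test of edgeR was run on the 19332 genes left, on all 31 libraries together with 1 term for each group, and p-values were adjusted by Benjamini-Hochberg. Levels are TMM-scaled CPM, and RPKM divides these by the exon length in kilobases (GENCODE M21). SE is the log2 fold change over the root of its F statistic. DESeq2 1.42.0 was an alternative.

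Early libraries were grouped as the study's group means place them and not by label (10 of 31 differ); grouping by label is an alternative given beside the early results that were called. The genes and lists were chosen with earlier results of these data known. Members and comparisons are given with tests where called, where group means differed at least 2-fold at 1 CPM or more, or where the labels changed the call; other retinoid genes where called at 10 CPM or more, up to 6 per comparison by fold, except 1 that is not reported here. A count of 3 or fewer is the floor. The tests were checked on simulated data. Libraries are of pooled sections, 1 per embryo and region at E16.5 and with embryos shared in the early groups, so that p-values measure the spread between libraries and are too small where embryos are shared. Same-numbered E16.5 olfactory nerve and outer ONL libraries deviated together (correlations 0.26 to 0.50 over 11992 genes), the only pair of E16.5 regions where all exceeded 0.1. Group means of the study served the grouping alone.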

Additional observations from a re-analysis of the deposited data

Results flagged for a closer look

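Of 44 gene and group levels checked for a library far from the others of its group, 8 had one, where chance alone gives about 1 in 20. In the E13.5 nerve group the library labelled E13.5 olfactory nerve replicate 2 stood high in 3 genes: Aldh1a3 at 247 CPM (the others 89.3 to 148), Crabp1 at 466 CPM (130 to 259) and Crabp2 at 558 CPM (249 to 371). In the E11.5 nerve group the library labelled E13.5 ONL replicate 3 had 24.1 CPM of Aldh1a3, against 2.78 to 5.17 CPM. At E16.5, Crabp1 was at 168 CPM in olfactory nerve replicate 4 (the others 85.6 to 99.4) and at 2.82 CPM in inner ONL replicate 1 (5.30 to 5.50). Crabp2 was at 16.4 CPM in outer ONL replicate 1 (35.9 to 39.6), and Stra6 at 139 CPM in outer ONL replicate 4 (104 to 105).

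The difference between ONL and nerve changed from E13.5 to E16.5 for Aldh1a2, by 2.80 on the log2 scale, and for Crabp1, by -1.70, each by an edgeR test of the difference itself. Neither change held its size under the labels of the early libraries, which gave 0.03 for Aldh1a2 and -4.47 for Crabp1.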

How the results depend on the processing

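Grouping the early libraries by their labels changed most. The genes called, of the 9, were then 3 for outer ONL against trigeminal nerve, 3 for inner against outer ONL, 3 for E13.5 ONL against nerve, 5 for E13.5 against E11.5 nerve and 3 for outer ONL against E13.5 ONL, and the other retinoid genes called were 4 for E13.5 ONL against nerve and 10 for E13.5 against E11.5 nerve. Between outer ONL and olfactory nerve Aldh1a2 and Aldh1a3 lost their call, and between the E16.5 nerves Aldh1a1 did (edgeR adjusted p = 0.149, 0.227 and 0.055). Direction turned for E13.5 ONL against nerve in Crabp1 (1.89), Crabp2 (0.20) and Stra6 (0.66), for E13.5 against E11.5 nerve in Cyp26a1 (1.77), Crabp1 (0.68), Crabp2 (1.20) and Stra6 (0.86), and for outer ONL against E13.5 ONL in Aldh1a2 (-0.47) and Cyp26a1 (-0.29), all log2 fold changes. Outside the 58 fold changes recomputed throughout, Cyp26a1 for E13.5 ONL against nerve also turned (1.99). Of these 58 fold changes, 30 kept direction and side of the threshold under the labels, 57 with DESeq2, 54 with total count scaling and 57 with no filter. Fitting the compared groups alone called 7 of the 9 genes for E16.5 against E13.5 nerve and 8 other retinoid genes for E13.5 against E11.5 nerve. Leaving out 1 library at a time gave 2 to 4 genes called for E16.5 against E13.5 nerve and 1 to 3 for the change of the ONL to nerve difference, in which Cyp26a1 ran from -1.28 to 2.56. Over all such fits, 522 fold changes kept direction and side of the threshold, 46 lost their call, 3 gained one and 1, the Cyp26a1 change, turned. With the replicate number as a block, 7, 5, 6 and 5 genes were called between outer ONL and olfactory nerve, outer ONL and trigeminal nerve, the nerves, and inner and outer ONL, and it changed no call but those of Cyp26b1 (2 comparisons), Aldh1a1 and, between the nerves, Crabp2 (adjusted p = 0.021). No paired analysis was possible for the early comparisons because the regrouped libraries keep no shared numbers. A fit of E16.5 libraries alone, chosen after seeing the data, called 7, 7, 5 and 6. The cause of these changes was not tested. For the alternative fits of this paragraph the shares of all genes called are not given here. The low groups of Aldh1a1, Cyp26a1 and Cyp26b1 hold few counts, and small differences there were not detectable.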
